A study of Mus musculus with 10 samples.

Results

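The genes described here encode the machinery that copies DNA in S phase, together with enzymes that supply its building blocks and a few factors that control or follow it. They were 41 genes chosen by symbol from the table of 13252 genes, and all 41 were present. They are the 6 subunits of the MCM helicase, 3 origin licensing factors, 6 factors of helicase activation, 6 primase and polymerase subunits, the sliding clamp with 5 subunits of its loader, 4 genes of single-strand binding and Okazaki fragment processing, 5 of nucleotide supply, 3 of chromatin assembly and methylation upkeep, and 2 E2F transcription factors. Their levels were compared between mouse regulatory T cells (Treg cells) with and without Helios, the Ikaros family transcription factor encoded by Ikzf2.

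Helios+ cells were sorted as CD4+RFP+GFP+ and Helios- cells as CD4+RFP+GFP-, with 5 RNA-seq libraries of total RNA in each group. The labels tie GFP to Helios and do not say what RFP reports, and the series' design text speaks of wildtype and knockout cells where the sample labels give 2 sorted populations. The sources used here give no strain, age or treatment and do not say if the replicates came from separate mice. A p-value thus weighs a difference against the spread among these libraries, part or all of which may be technical. Gene coordinates below are of the mouse build GRCm38 (mm10) with the GENCODE annotation. A normalized count is the number of reads of a gene divided by the size factor of its library.

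Ikzf2 checked the labels. Normalized counts were 487 ± 56.5 for Helios- and 10367 ± 456 for Helios+ (SD over 5 libraries each), an exact two-sided permutation p of 0.00794, the smallest that 252 assignments can give. Libraries held 4872348 to 6948692 reads. Of 6 Treg markers, Foxp3, Cd4 and Cd3e were not called, and Il2ra, Ctla4 and Tnfrsf18 were higher in Helios+ libraries. Transcripts of other cell types were present in both groups. The 6 B cell markers summed to 1583 to 2242 normalized counts in Helios- and 1402 to 1979 in Helios+ libraries, with 0 of 6 called. Of 4 macrophage markers tested, Csf1r was called higher, with sums of 194 to 330.3 and 263 to 504 over the 5 in the table, where Cd14 was at 0 to 4.19 normalized counts. Of 6 CD8 T or NK cell markers, Nkg7 was called higher, with sums of 459 to 537 and 449.97 to 517. Of 3 plasma cell markers tested, Prdm1, which activated Treg cells also express, was called higher, and the sums of the 4 in the table were 391 to 447 and 470.2 to 553. Erythroid markers summed to at most 19.7 and thymocyte markers to at most 118 normalized counts in any library. The part of these cells in the values below was not tested. In bulk RNA, more cells in S phase and more RNA per cell cannot be told apart.

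Before S phase, the origin recognition complex with Cdc6 and Cdt1 loads rings of the 6 subunits Mcm2 to Mcm7 onto DNA. Mcm10, Cdc45 and the GINS complex then turn the rings into active helicases, and primase, polymerases, the clamp Pcna and its loader RFC copy both strands while nucleotide enzymes keep up the supply of precursors. E2F factors, held back by the retinoblastoma family in resting cells, drive many of these genes as a cell leaves G1. Treg cells are known to divide more in the activated fraction than in the resting fraction.

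The promoters show a sequence feature that the choice of the genes did not use. RefSeq promoter windows (build GRCm38.p6, from 250 bases before to 50 after a transcription start) were found for 34 of the 41 genes, with 41 windows in all because some genes have several starts. The genes with no window were Gins1, Gins2, Gins4, Mcm4, Pole, Prim2 and Rfc2. The E2F core letters TTTCCCGC, TTTCGCGC, TTTGCCGC or TTTGGCGC, searched on both strands, were in 13 of the 41 windows (31.7%), against 744 of 32851 windows of all genes (2.27%) and 4.16% of the windows of genes tested here. Other replication genes had the same share, 13 of 41 windows. The windows with a match belong to Cdc6, Cdt1, E2f2, Gins3, Lig1, Mcm3, Mcm5, Mcm6, Mcm7, Pola1, Pold1, Rfc3 and Uhrf1. The CCAAT letters, bound by the factor NF-Y in many promoters, were in 61.0% of the windows and in 37.4% of all windows. The CHR letters TTTGAA, known from promoters of mitotic genes, were in 12.2% of the windows, in 17.9% of all windows and in 67.9% of the windows of 28 promoters of G2/M genes. A match describes the letters of a window and is no evidence of binding.

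Stretches around the E2F letters are shown for 4 genes called higher in Helios+ cells, taken in order of p among those whose stretch lies outside annotated exons. They let the letters be read in their context, with the matches in capitals and the strand of the gene read 5′ to 3′. In Mcm6 (chr1:128359706-128359855, minus strand) the matches start 110, 106 and 47 bases before the transcription start, and the first and second overlap on opposite strands. In Uhrf1 (chr17:56304088-56304175, plus strand) the match starts 185 bases before a start of the gene. In Mcm5 (chr8:75109316-75109407, plus strand) overlapping matches start 153 and 149 bases before it. In Pola1 (chrX:93632246-93632333, minus strand) the match starts 138 bases before the start and lies on the other strand.
Mcm6: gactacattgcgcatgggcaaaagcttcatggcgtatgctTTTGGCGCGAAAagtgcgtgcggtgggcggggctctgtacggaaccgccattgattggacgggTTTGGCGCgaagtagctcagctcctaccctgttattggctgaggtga
Uhrf1: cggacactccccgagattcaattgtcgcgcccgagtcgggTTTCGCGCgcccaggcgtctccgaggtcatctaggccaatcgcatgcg
Mcm5: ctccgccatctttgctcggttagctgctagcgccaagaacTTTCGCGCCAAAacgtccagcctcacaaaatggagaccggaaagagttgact
Pola1: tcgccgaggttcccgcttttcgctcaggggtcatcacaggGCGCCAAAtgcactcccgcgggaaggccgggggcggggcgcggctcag
Of the genes with a window, 8 of the 13 called higher and 5 of the 21 tested and not called held the E2F letters, which is given as a description.

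Replication genes leaned towards Helios+ cells, with a few large changes among many small ones. The test took genes whose normalized counts averaged at least 10, which kept 40 of the 41 and left out Gins2. A gene was called at an adjusted p under 0.05 in limma (Benjamini-Hochberg over all 10718 genes tested). By this rule 14 of 40 (35.0%) were higher in Helios+ cells, beside 14.1% of all genes tested, and 0 were lower, beside 10.7%. At an unadjusted limma p under 0.05, 17 were higher and 1, Orc2, was lower, beside 1997 and 1807 of all 10718 genes. On reads recovered from the table, edgeR called 14 higher and 0 lower, beside 1563 and 1074 of all genes. DESeq2 called 15 and 0, beside 1594 and 1252. Blocked by replicate number, limma called 15 higher and 2 lower, where 18.9% and 18.5% of all genes were called. The median log2 change of normalized count + 1 was 0.27 over the 40 genes and -0.02 over all genes tested. A positive sign was seen for 31 of the 40, beside 5033 of all 10718 genes. The groups did not overlap for 11 genes that were higher, beside 11.2% of all genes, and for 1 that was lower, beside 8.37%.

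Low genes are called higher more often in the whole table, so the counts are also given by level. At a mean of 10 to 50 normalized counts, 3 of 11 genes were higher, beside 19.4% of all genes at that level, with median log2 changes of 0.54 and 0.11. At 50 to 200, 6 of 16 were higher, beside 15.1%, with medians of 0.21 and 0.01. At 200 to 1000, 5 of 13 were higher, beside 12% of all genes, with medians of 0.08 and -0.04.

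**Figure D1:**
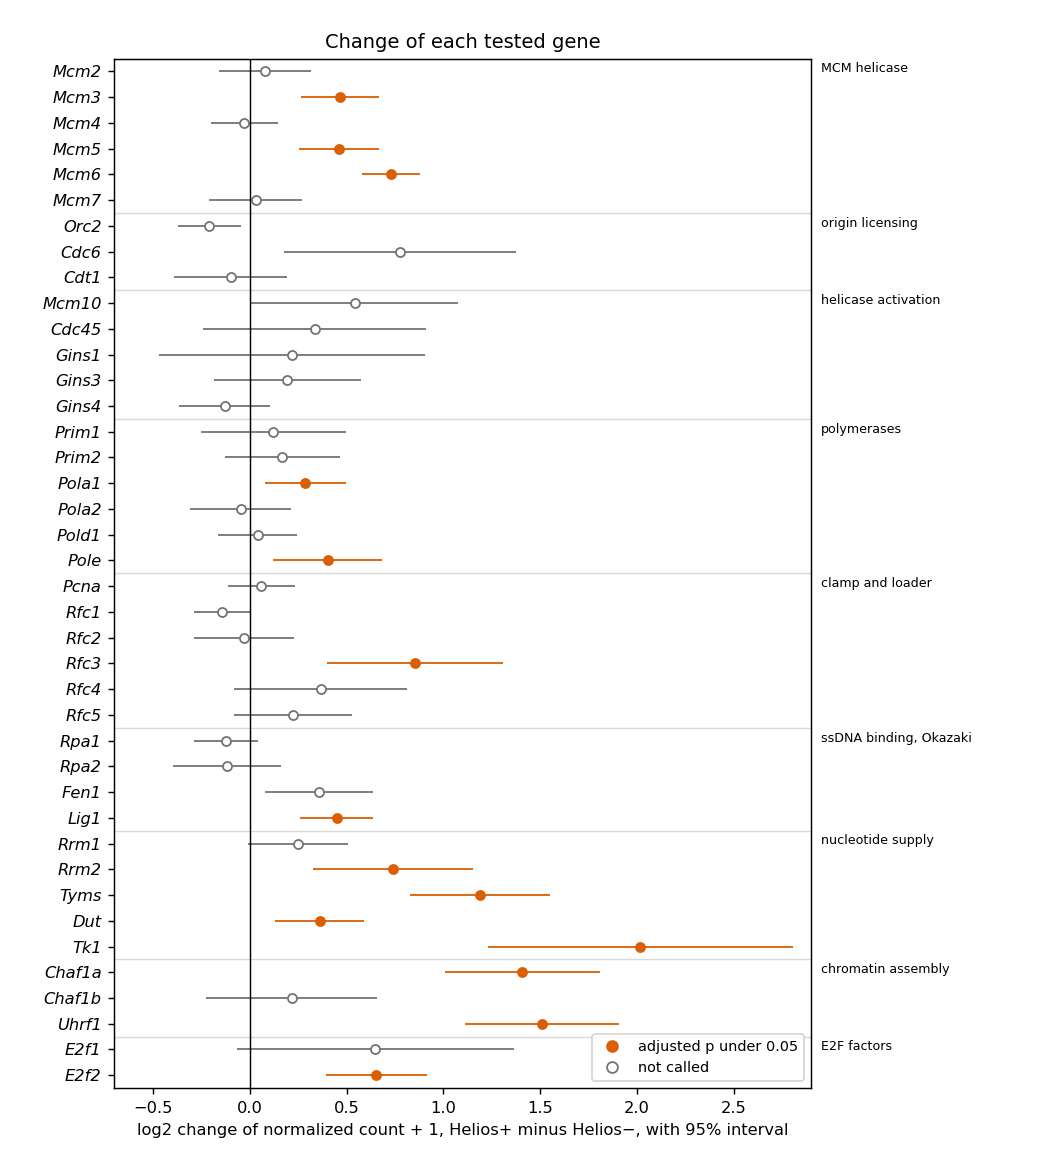
Change of each of the 40 genes tested between Helios- and Helios+ cells (log2 of normalized count + 1, positive where Helios+ is higher), grouped by role, with bars for the 95% interval of limma. The 14 genes called higher lie between 0.29 (Pola1) and 2.02 (Tk1), and all changes below 0 are small, down to -0.21 (Orc2).

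The MCM helicase subunits split into 3 that rose and 3 that were not called, beside 14.1% of all genes called higher. Mcm6 (chromosome 1, 128331590 to 128359664, minus strand) had 442, 536, 528, 460.0 and 485 normalized counts in Helios- libraries 1 to 5 and 834, 841, 819, 825 and 738 in Helios+ libraries 1 to 5. Every Helios+ library was above every Helios- library, and Helios+ library 5 was the lowest of its group. The change was 0.73 ± 0.07 on the log2 scale (SE; limma adjusted p = 1.54e-06), a 1.66-fold difference of means, higher in 5 of 5 pairs of libraries with the same replicate number. For this and every other gene whose groups do not overlap, 5 of 5 pairs follows from that and adds no support.

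Mcm3 (chromosome 1, 20802968 to 20820312, minus strand) had 349, 449.8, 509, 409.6 and 432 normalized counts in the Helios- libraries and 586, 647, 616, 587 and 518 in the Helios+ libraries, again with no overlap. Its log2 change was 0.46 ± 0.09 (limma adjusted p = 0.00173). Mcm5 (chromosome 8, 75109569 to 75128439, plus strand), whose protein forms the gate of the ring with Mcm2, had 162, 202, 217, 197 and 197 against 263, 271, 309, 264 and 235 normalized counts. It did not overlap between the groups either, at 0.46 ± 0.10 (limma adjusted p = 0.00228).

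The other MCM subunits were not called. Mcm2 (chromosome 6, 88883474 to 88898780, minus strand) had 309, 416, 481, 421 and 445 normalized counts in Helios- and 378, 425, 510.2, 415 and 447 in Helios+ libraries, which overlap, and the log2 change was 0.08 (95% interval -0.16 to 0.32). Mcm4 (chromosome 16, 15623897 to 15637400, minus strand) had 433, 525, 573, 522 and 576 against 488, 557, 512, 519.7 and 490.3, a change of -0.03 (-0.20 to 0.15). For Mcm7 (chromosome 5, 138164583 to 138172422, minus strand) the values were 363, 363, 282, 289 and 290.0 against 360.5, 305, 331, 371 and 255, a change of 0.03 (-0.21 to 0.27). The intervals of Mcm3 (0.26 to 0.66) and Mcm5 (0.25 to 0.67) lie above that of Mcm4 and overlap those of Mcm2 and Mcm7. The calls of Mcm3, Mcm5 and Mcm6 held under each of the 24 alternatives, and Mcm2, Mcm4 and Mcm7 were called under none, though their sign changed when single libraries were left out. Of the exon bases of Mcm7, 12.6% overlap other genes, among them Ap4m1 and Cops6, and 3.89% overlap genes on the same strand.

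**Figure D2:**
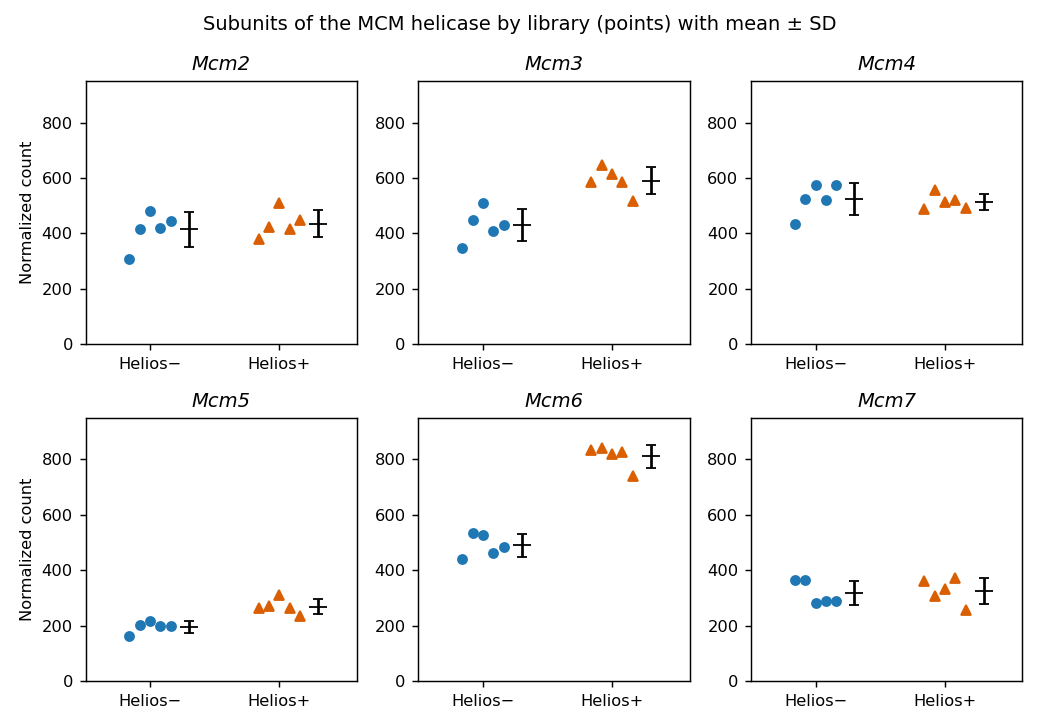
Normalized counts of the 6 MCM subunits by library, 5 points per group, with a bar for the mean and SD. The libraries of the groups are apart for Mcm3, Mcm5 and Mcm6 and overlap for Mcm2, Mcm4 and Mcm7.

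The balance among the 6 subunits therefore differed between the populations. Mcm6 made up 20.7% ± 0.753 of the summed MCM counts in Helios- and 27.6% ± 0.788 in Helios+ libraries (SD, n = 5), while Mcm4 made up 22.1% ± 1.15 and 17.5% ± 0.815. The log2 ratio of subunits was compared in 37 pairs within 7 complexes by an exact two-sided permutation test, a comparison added after the values had been seen. The test took the libraries as unpaired, though libraries of the same replicate number deviated together. Within 5 pairs the smallest exact p is 0.0625, so no ratio could pass a paired exact test. Unpaired, the ratio differed at an adjusted p under 0.05 in 13 pairs of subunits, 9 of the 15 MCM pairs among them. In all 13 the sign was the same in 5 of 5 replicate pairs, which follows wherever the groups are apart and adds no support there. Mcm6 rose relative to each of the other 5 subunits. The log2 ratio of Mcm4 to Mcm6 was 0.10 ± 0.12 in Helios- and -0.66 ± 0.07 in Helios+ libraries (exact permutation p = 0.00794, adjusted p = 0.0367). The log2 ratio of Mcm3 to Mcm5, which both rose, was 1.13 ± 0.06 and 1.14 ± 0.09 (exact permutation p = 0.929). The ratios of Mcm3 and of Mcm5 to Mcm7 did not pass (exact permutation p = 0.0317 and 0.0397, adjusted p = 0.0783 and 0.0864). With 1 library left out the smallest exact p is 0.0159. Then 12 pairs passed without Helios- replicate 3, 13 without Helios+ replicate 5 and 0 without any other single library, with 13 to 19 pairs at an unadjusted p under 0.05.

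None of the 3 licensing genes was called, beside 14.1% of all genes higher and 10.7% lower, so the count lies near those shares. Orc2 (chromosome 1, 58462771 to 58505109, minus strand), a subunit of the origin recognition complex, was the only one of the 41 whose groups were apart in the other direction. It had 214, 227, 219.5, 212 and 222 normalized counts in Helios- and 178, 202, 197, 190.4 and 179.6 in Helios+ libraries, so that every Helios+ library was lower. The log2 change was -0.21 ± 0.08 (limma adjusted p = 0.0578, and adjusted p = 0.0422 with the replicate block). It was also called lower at a mean of at least 50 (limma adjusted p = 0.0492) and with quantile normalization (0.0321). Nif3l1, on the opposite strand, covers 29.8% of the exon bases of Orc2.

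Cdc6 (chromosome 11, 98907801 to 98923940, plus strand), the loader that joins the origin complex before the helicase, was low, with 45 reads over the 5 Helios- and 84 over the 5 Helios+ libraries. Its normalized counts were 8.20, 14.8, 6.55, 7.70 and 8.76 in Helios- and 22.0, 14.2, 16.2, 15.5 and 12.7 in Helios+ libraries. Helios- library 2 stood above the other Helios- libraries and within the range of the Helios+ libraries. The change was 0.78 ± 0.28 (limma adjusted p = 0.0563), and without Helios- replicate 2 it passed the threshold (adjusted p = 0.0224). Cdt1, the partner of Cdc6 in loading, averaged 123 ± 25.3 normalized counts in Helios- and 113 ± 9.01 in Helios+ libraries, with a change of -0.10 ± 0.14 (limma adjusted p = 0.656).

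Most factors that activate the loaded helicase had low counts, and 0 of 5 tested were called in limma, edgeR or DESeq2. In limma 14.1% of all genes were higher and 10.7% lower, so 0 of 5 lies near those shares. At an unadjusted limma p under 0.05, 1 was higher (Mcm10) and 0 were lower, beside 1997 and 1807 of all 10718 genes. Mcm10, which helps the active helicase move, averaged 16.3 ± 4.16 normalized counts in Helios- and 24.1 ± 6.61 in Helios+ libraries, a log2 difference of 0.54 ± 0.25 (limma adjusted p = 0.136). Cdc45, the helicase cofactor, averaged 25.1 ± 5.31 normalized counts in Helios- and 33.4 ± 11.8 in Helios+ libraries, a change of 0.33 ± 0.27 (limma adjusted p = 0.417). The GINS subunits went both ways in sign, Gins1 at 0.22, Gins3 at 0.19 and Gins4 at -0.13 (limma adjusted p = 0.683, 0.486 and 0.433). The sign of Gins1 changed with quantile normalization. Gins2, below the level for testing, had 2.34, 3.18, 12.0, 4.28 and 6.81 normalized counts in Helios- and 18.9, 10.9, 15.4, 12.6 and 10.4 in Helios+ libraries. It was higher in Helios+ in 5 of 5 pairs while the groups overlapped. Of the exon bases of Gins2, 67.3% overlap Gse1 on the opposite strand.

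Of the polymerase genes, the catalytic subunits of polymerases alpha and epsilon rose by small amounts. Pola1 (chromosome X, 93304767 to 93632155, minus strand), the polymerase that extends primers, had 182, 147, 177, 192 and 158 normalized counts in Helios- and 219, 183, 229.9, 216 and 196 in Helios+ libraries, with some overlap. Its log2 change was 0.29 ± 0.10 (limma adjusted p = 0.0455), higher in 5 of 5 pairs. Pole (chromosome 5, 110286306 to 110337474, plus strand), the leading strand polymerase, had 105, 78.3, 63.3, 77.8 and 72.0 against 101, 97.0, 108, 105 and 109 normalized counts. Helios- library 1 lay within the range of the Helios+ libraries, and the change was 0.40 ± 0.13 (limma adjusted p = 0.0353), higher in 4 of 5 pairs.

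Both calls depended on single libraries. The call of Pola1 ended without Helios- replicate 2 or 5 (limma adjusted p = 0.118 and 0.104) and without Helios+ replicate 1, 3, 4 or 5 (0.0928, 0.113, 0.0958 and 0.0576). That of Pole ended without Helios- replicate 2, 3, 4 or 5 (limma adjusted p = 0.0634, 0.0738, 0.0655 and 0.0793) and without Helios+ replicate 1, 3, 4 or 5 (0.054, 0.0737, 0.0698 and 0.0773). Quantile normalization ended both, at adjusted p = 0.0706 and 0.0925, and testing without a filter that of Pola1 (0.0505). The primase subunits Prim1 and Prim2, which lay down the RNA primer, had log2 changes of 0.12 ± 0.18 and 0.17 ± 0.14, and the sign of Prim1 changed with quantile normalization. Pola2, the accessory subunit of polymerase alpha, was at -0.05 ± 0.12 and Pold1, the catalytic subunit of the lagging strand polymerase delta, at 0.04 ± 0.10. None of these 4 was called (limma adjusted p = 0.677, 0.434, 0.817 and 0.802).

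The clamp Pcna, often used as a mark of dividing cells, was not called. Pcna (chromosome 2, 132249162 to 132253314, minus strand) had 347, 373, 437, 359 and 337 normalized counts in Helios- and 355, 375, 414, 385 and 395 in Helios+ libraries. The groups overlapped, and the log2 change was 0.06, with a 95% interval of -0.11 to 0.23 (limma adjusted p = 0.658).

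Of the 5 loader subunits measured, Rfc3 alone was called, a count near the 14.1% of all genes called higher. Rfc3 is a small subunit of the ring that opens the clamp. Rfc3 (chromosome 5, 151642756 to 151651242, minus strand) had 26.9, 37.0, 20.8, 23.1 and 23.4 normalized counts in Helios- and 49.2, 39.3, 67.5, 51.5 and 34.8 in Helios+ libraries. The highest Helios- library was above the lowest Helios+ library, and within pairs Helios+ was higher in 5 of 5. The change was 0.85 ± 0.21 (limma adjusted p = 0.00751). It passed under all alternatives that tested it except the one without both libraries of replicate 4 (adjusted p = 0.0514). At a mean of at least 50, Rfc3 was not tested.

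Rfc1, the large subunit, went the other way in sign. Rfc1 (chromosome 5, 65261850 to 65335670, minus strand) had 642, 618, 575, 654 and 674 against 596, 523, 546, 619 and 584 normalized counts, a change of -0.14 ± 0.07 (limma adjusted p = 0.159, and adjusted p = 0.0494 with the replicate block, lower in 5 of 5 pairs). The small subunits Rfc2, Rfc4 and Rfc5 had changes of -0.03 ± 0.12, 0.37 ± 0.21 and 0.22 ± 0.14 (limma adjusted p = 0.89, 0.231 and 0.292). For these, 15.1%, 12.7% and 10.7% of exon bases overlap another gene on the opposite strand. The ratio of Rfc3 to Rfc1, Rfc2 and Rfc5 differed between the groups. For Rfc1 and Rfc3 the log2 ratio was 4.57 ± 0.32 in Helios- and 3.57 ± 0.37 in Helios+ libraries (exact permutation p = 0.0159, adjusted p = 0.0452).

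At the lagging strand, Lig1 rose, and Fen1, Rpa1 and Rpa2 were not called. Lig1 (chromosome 7, 13277283 to 13311433, plus strand), the ligase that seals Okazaki fragments, had 220.2, 266, 286, 263 and 299 normalized counts in Helios- and 338, 401, 359.8, 375 and 342 in Helios+ libraries. The ranges were apart, and the change was 0.45 ± 0.09 (limma adjusted p = 0.00152), higher in 5 of 5 pairs.

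Fen1 (chromosome 19, 10199132 to 10204169, minus strand), the nuclease that trims the flap before ligation, had 86.7, 72.0, 117, 105 and 96.3 against 107, 135, 128, 118 and 119 normalized counts. Helios- library 3 lay among the Helios+ libraries. The change was 0.36 ± 0.13 (limma adjusted p = 0.0599, and adjusted p = 0.0222 with the replicate block). Fen1 was called by DESeq2 (adjusted p = 0.0488) and by limma without Helios- replicate 3 (adjusted p = 0.0195). Other genes, all on the opposite strand, cover 84.2% of its exon bases. Its counts are uncertain because the strand setting of the counting is not given. Rpa1 and Rpa2, subunits of the protein that coats single-stranded DNA, had 787 ± 72.8 against 722 ± 54.4 and 95.8 ± 13.5 against 88.1 ± 11.8 normalized counts. Their changes were -0.12 ± 0.08 and -0.12 ± 0.13 (limma adjusted p = 0.279 and 0.566).

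Nucleotide supply was the role with the most calls, 4 of 5 higher, beside 14.1% of all genes. Of 10 other nucleotide supply genes, 1 was higher and 1 lower. Tk1 (chromosome 11, 117815526 to 117826092, minus strand), thymidine kinase of the salvage route and an S phase gene, had 24.6, 9.53, 6.55, 11.1 and 3.89 normalized counts in Helios- and 57.6, 46.0, 36.7, 44.7 and 26.7 in Helios+ libraries. Every Helios+ library was above every Helios- library, though Helios- library 1 came close to Helios+ library 5. The log2 change was 2.02 ± 0.37 (limma adjusted p = 0.000786), a 3.80-fold difference of means, higher in 5 of 5 pairs. It rested on 53 reads over the 5 Helios- and 222 over the 5 Helios+ libraries.

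Tyms (chromosome 5, 30058202 to 30073617, minus strand), thymidylate synthase, makes thymidylate by the de novo route. It had 35.1, 37.0, 42.6, 23.9 and 30.2 normalized counts in Helios- and 71.3, 66.9, 73.5, 81.6 and 93.9 in Helios+ libraries, with the groups far apart. The change was 1.19 ± 0.17 (limma adjusted p = 7.58e-05), 2.29-fold in means. Tk1 and Tyms were thus both higher in every Helios+ library than in any Helios- library.

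Rrm2 (chromosome 12, 24708241 to 24714146, plus strand), the S phase subunit of ribonucleotide reductase, had 30.5, 37.0, 21.8, 18.8 and 31.1 against 48.2, 51.0, 43.6, 42.7 and 44.0 normalized counts, which do not overlap. Its change was 0.74 ± 0.19 (limma adjusted p = 0.0105). Dut (chromosome 2, 125247190 to 125258608, plus strand), which keeps uracil out of DNA, had 108, 112, 125, 124 and 126 against 129.9, 141, 183, 154 and 159.9, with a change of 0.36 ± 0.11 (limma adjusted p = 0.0223). The groups of Dut did not overlap, but its call ended without Helios- replicate 2, Helios+ replicate 3 or Helios+ replicate 5 (limma adjusted p = 0.0524, 0.0655 and 0.0537) and with quantile normalization (0.0584).

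Rrm1 (chromosome 7, 102441695 to 102469771, plus strand), the large reductase subunit, which is present beyond S phase, had 192, 194, 304, 196 and 206 against 229, 251, 240.1, 274 and 286 normalized counts. Helios- library 3 was the highest of all 10, and the other Helios- libraries were below every Helios+ library. The change was 0.25 ± 0.12 (limma adjusted p = 0.159), and without Helios- replicate 3 Rrm1 was called (adjusted p = 0.00503). The log2 ratio of Rrm1 to Rrm2 was 2.94 ± 0.57 and 2.45 ± 0.21 (exact permutation p = 0.111), a difference that did not pass the test.

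Genes of chromatin behind the fork gave some of the largest changes. Uhrf1 (chromosome 17, 56303321 to 56323486, plus strand), which reads hemimethylated DNA and recruits the maintenance methyltransferase, had 50.4, 38.1, 28.4, 35.9 and 25.3 normalized counts in Helios- and 93.3, 83.6, 106, 132 and 92.7 in Helios+ libraries. The lowest Helios+ library was above the highest Helios- library. The change was 1.51 ± 0.19 (limma adjusted p = 1.9e-05), 2.85-fold in means, and higher in 5 of 5 pairs.

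Chaf1a (chromosome 17, 56040439 to 56072289, plus strand), the large subunit of the histone chaperone CAF-1, had 29.3, 30.7, 32.8, 20.5 and 38.0 normalized counts in Helios- and 80.7, 71.1, 70.9, 115 and 71.9 in Helios+ libraries. Helios+ library 4 stood above the other Helios+ libraries, all of which were above every Helios- library. The change was 1.41 ± 0.19 (limma adjusted p = 3.83e-05), 2.71-fold in means. Of its exon bases, 52.5% overlap Ubxn6 on the opposite strand. Ubxn6 was not called, at a log2 change of -0.06 (limma adjusted p = 0.729).

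Chaf1b (chromosome 16, 93883901 to 93906115, plus strand), the partner subunit of CAF-1, was not called. It had 38.7, 33.9, 24.0, 53.0 and 50.6 against 43.0, 41.8, 38.5, 49.5 and 53.3 normalized counts, with wide overlap, and a change of 0.22 ± 0.21 (95% interval -0.23 to 0.66, limma adjusted p = 0.506). The log2 ratio of Chaf1a to Chaf1b was -0.37 ± 0.64 in Helios- and 0.83 ± 0.28 in Helios+ libraries (exact permutation p = 0.0159, adjusted p = 0.0452).

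Of the 2 E2F genes among the 41, E2f2 had the higher counts and was called, and E2f1 was not. E2f2 (chromosome 4, 136172394 to 136196057, plus strand) had 145, 128, 165, 167 and 199.5 normalized counts in Helios- and 245, 209.9, 273, 239 and 296 in Helios+ libraries, without overlap. The change was 0.65 ± 0.12 (limma adjusted p = 0.000902), 1.57-fold in means and higher in 5 of 5 pairs. E2f1 (chromosome 2, 154559407 to 154569892, minus strand) was near the limit of testing, with 10.5, 5.29, 5.46, 7.70 and 14.6 against 19.9, 9.20, 11.1, 11.7 and 17.4 normalized counts. It was higher in Helios+ in 5 of 5 pairs, the groups overlapped, and the change was 0.65 ± 0.34 (limma adjusted p = 0.185).

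**Figure D3:**
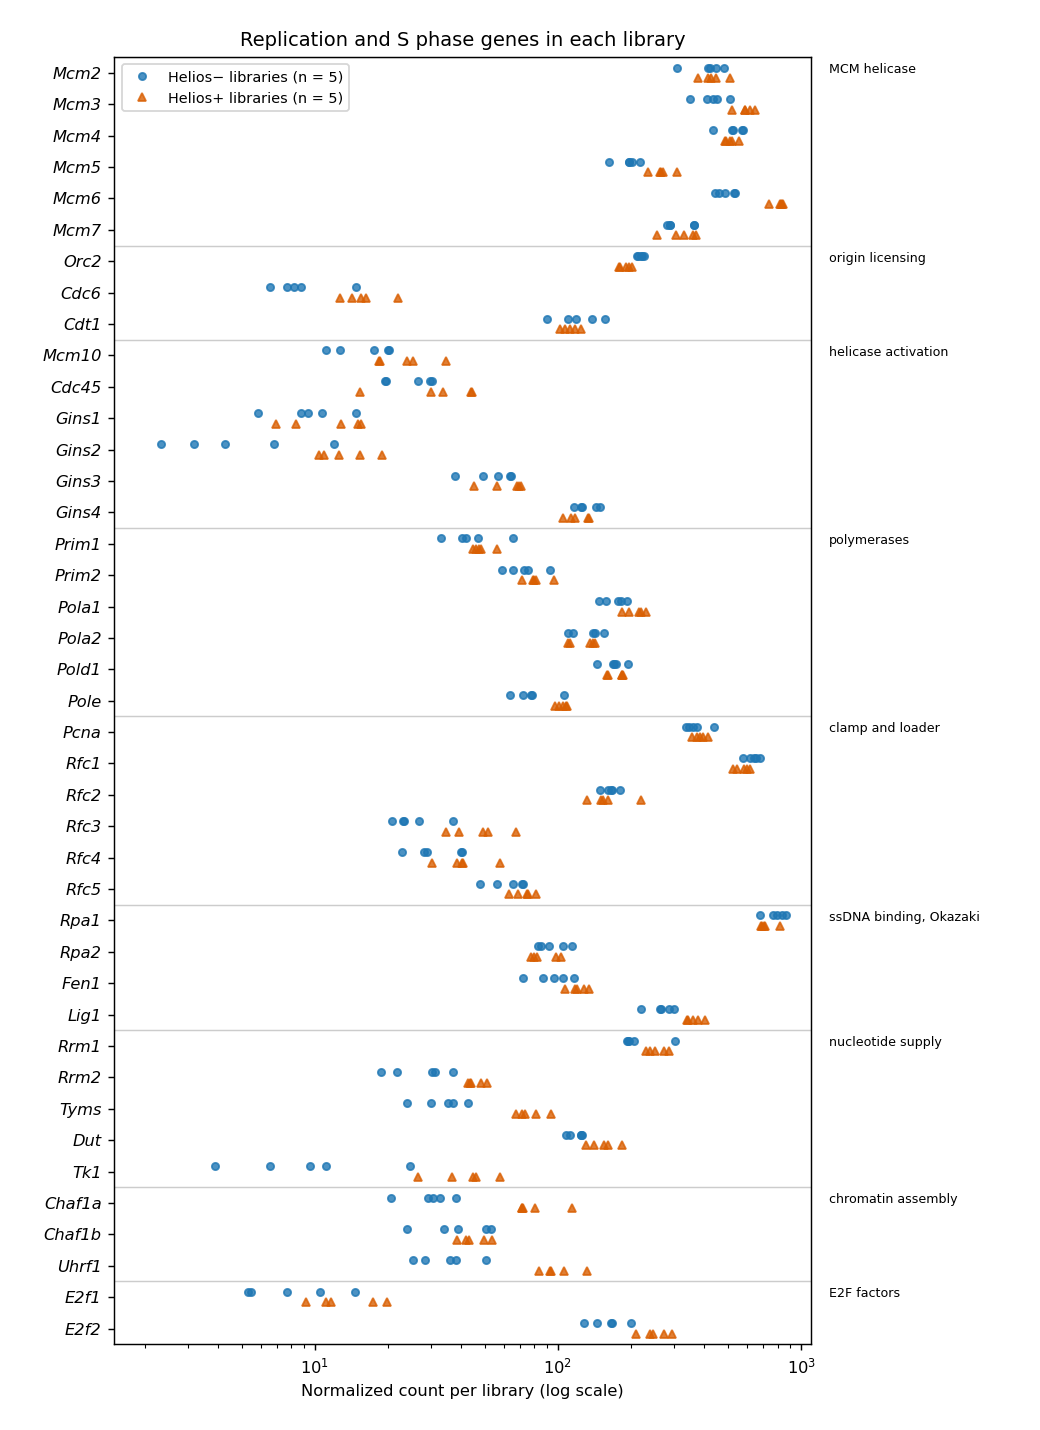
Normalized count of each of the 41 genes in each library, on a log scale and grouped by role, with circles for the 5 Helios- and triangles for the 5 Helios+ libraries. Mcm6, Tyms, Chaf1a and Uhrf1 show clear gaps between the groups, while Pcna, Rpa1 and Chaf1b overlap.

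Levels of different genes were compared per kb of exon, as the sum of bases in any annotated exon. In Helios- cells the highest were Pcna at 154, Mcm4 at 147, Rpa1 at 141 and Mcm3 at 115 normalized counts per kb, and Mcm6 ranked 6 at 105. In Helios+ cells Mcm6 was first at 174 ± 8.93 normalized counts per kb (SD, n = 5), followed by Pcna at 160.3 ± 9.12 and Mcm3 at 157 ± 12.7. The ranges of these 3 over the libraries overlap, and their order within single libraries was not tested. The genes that changed most were low in Helios- cells, where Uhrf1, Tyms, Chaf1a and Tk1 ranked 30, 35, 36 and 38. In Helios+ cells Uhrf1 ranked 21, and Tyms, Chaf1a and Tk1 ranked 30, 35 and 36. Tk1 was at 2.14 and 8.15, Chaf1a at 3.42 and 9.24, Uhrf1 at 8.36 and 23.8 and Tyms at 5.55 and 12.7 normalized counts per kb in Helios- and Helios+ cells.

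**Figure D4:**
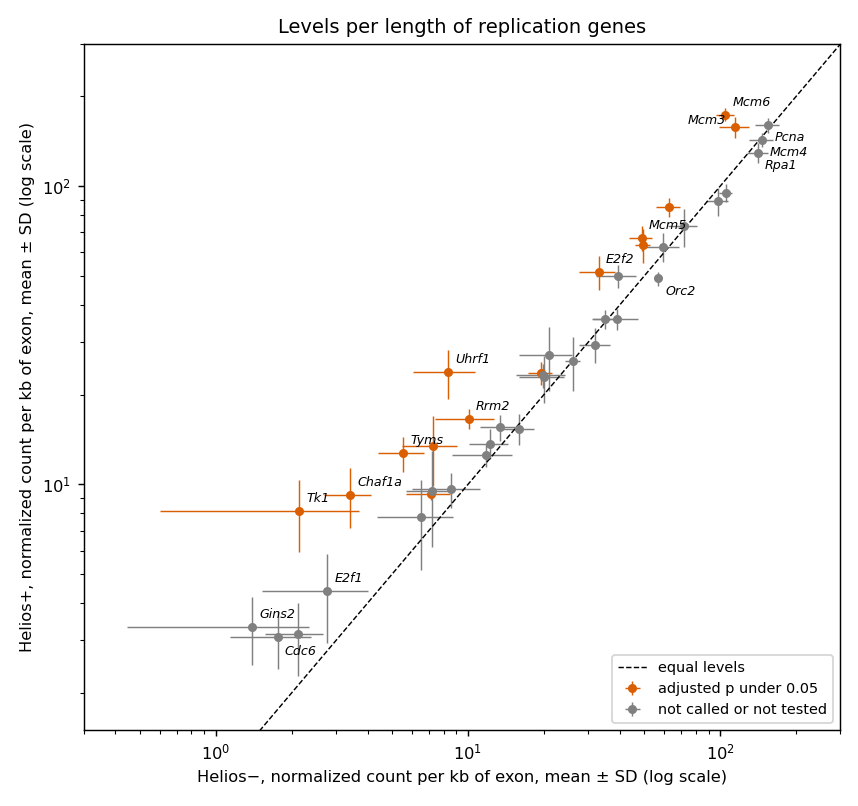
Mean normalized count per kb of exon of the 41 genes in Helios+ (vertical) against Helios- libraries (horizontal), both on log scales, with bars for the SD over 5 libraries and a dashed line for equal levels. Mcm6, Tyms, Tk1, Chaf1a and Uhrf1 lie above the line, and most abundant genes lie close to it.

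The shift was seen in every pair of libraries with the same replicate number. The median log2 difference over the 40 genes was 0.28, 0.10, 0.30, 0.39 and 0.30 in pairs 1 to 5, with 30, 26, 26, 29 and 31 of the 40 genes higher in the Helios+ library. The share of all genes higher within each pair was not counted. Pair 2 had the smallest difference. As deviations from the mean of all 10 libraries, the median of the 40 genes was -0.22 to -0.02 in Helios- and 0.10 to 0.22 in Helios+ libraries. Summed over the genes, normalized counts were 6358 to 7253 and 7711 to 8101, so the groups were apart on both measures. Over all genes tested, the median deviation stayed between -0.00485 and 0.0116 in both groups.

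**Figure D5:**
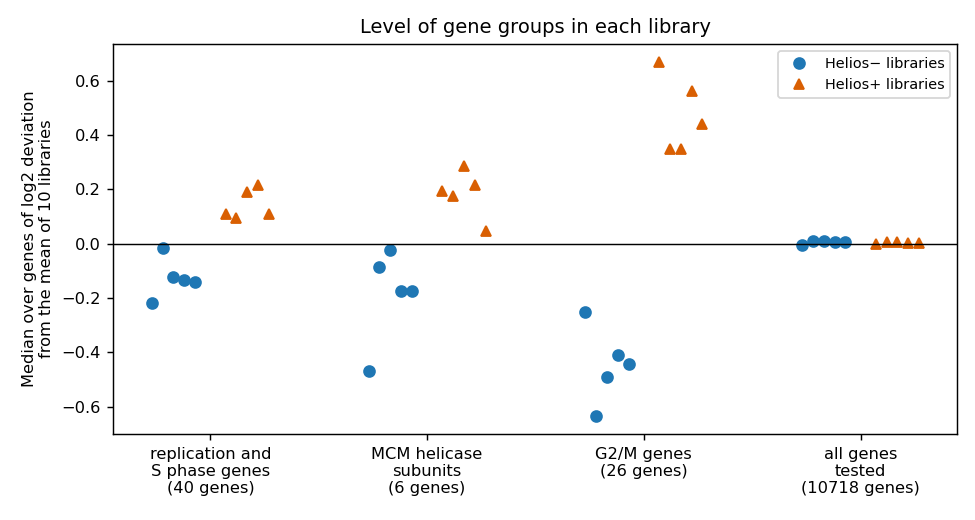
Median deviation from the 10-library mean (log2 of normalized count + 1) in each library for the 40 replication genes, the 6 MCM subunits, 26 G2/M genes and all 10718 genes tested. Helios+ libraries lie above Helios- libraries for the replication, MCM and G2/M genes, with the widest gap for G2/M genes (-0.64 to -0.25 against 0.35 to 0.67).

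The wider pathway was read from lists of other genes. Of 39 other replication genes tested, 7 (17.9%) were higher and 2 lower, beside 14.1% and 10.7% of all genes, with a median log2 change of 0.06. With the replicate block 9 were higher and 6 lower, beside 18.9% and 18.5%, so these counts lie near those of all genes. The count higher fell to 4 without Helios- replicate 2 or Helios+ replicate 1, 2 or 5 and to 3 without replicate 4 of either group, and was 2 with quantile normalization, while 4 were lower without Helios- replicate 3. Slbp, which binds histone mRNA, and the chromatin remodeller Hells rose by 0.55 ± 0.10 and 0.85 ± 0.16 (limma adjusted p = 0.000596 and 0.000737). Those lower were Mcmbp, a binding partner of the MCM proteins, with 1076 ± 107 normalized counts in Helios- and 779.7 ± 34.7 in Helios+ libraries, and Dnmt1, the maintenance methyltransferase that Uhrf1 recruits, with 1838 ± 86.7 normalized counts in Helios- and 1558 ± 57.5 in Helios+ libraries. Their log2 changes were -0.46 ± 0.07 and -0.24 ± 0.06 (limma adjusted p = 0.00022 and 0.00697). Uhrf1 and Dnmt1 therefore changed in opposite directions. Among other genes of nucleotide supply, Samhd1, which breaks down nucleotides, was lower, at -0.31 ± 0.07 (limma adjusted p = 0.00525).

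Among genes that control entry into S phase, some of which promote it and some hold it back, those called were higher in Helios+ cells, like E2f2. Limma, edgeR and DESeq2 each called 9 of 21 higher and 0 lower, beside 14.1% and 10.7% of all genes in limma. At an unadjusted limma p under 0.05, 10 were higher and 1, Rb1, was lower, beside 1997 and 1807 of all 10718 genes. With the replicate block 10 were higher and 2 lower, beside 18.9% and 18.5%. Their median log2 change was 0.27. The pocket protein Rbl2 rose by 0.57 ± 0.06, E2f3 by 0.90 ± 0.15, the E2F partner Tfdp1 by 0.42 ± 0.09 and Cdk6 by 0.59 ± 0.13 (limma adjusted p = 2.16e-06, 0.000294, 0.00184 and 0.00392). Without Helios+ replicate 4, 5 were higher, and without Helios- replicate 3, 1 was lower. Of 3 inhibitors of cyclin-dependent kinases tested, 1 was higher and 1 lower, beside 14.1% and 10.7% of all genes. Cdkn2c was higher, at 1.41 ± 0.36, and Cdkn2d lower, at -0.47 ± 0.13 (limma adjusted p = 0.00934 and 0.0117).

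Checkpoint and repair genes that act at the fork gave 3 calls. Limma, edgeR and DESeq2 each called 3 of 15 higher and 0 lower, beside 14.1% and 10.7% of all genes in limma, so the count higher lies near that of all genes. At an unadjusted limma p under 0.05, 6 were higher and 2, Msh6 and Fanci, were lower, beside 1997 and 1807 of all 10718 genes. With the replicate block 5 were higher and 2 lower, beside 18.9% and 18.5%. Among the higher ones were the kinases Wee1, at 1.81 ± 0.23, and Chek1, at 1.30 ± 0.32 (limma adjusted p = 2.43e-05 and 0.00657). Among 46 histone genes of the replication-dependent type, limma called 15 higher (32.6%) and 0 lower, beside 14.1% and 10.7% of all genes, and the median was 0.51. With the replicate block the counts were 25 and 1, beside 18.9% and 18.5%. At an unadjusted limma p under 0.05, 23 were higher and 1, Hist2h2be, lower, beside 1997 and 1807 of all 10718 genes. EdgeR called 15 and 0, beside 1563 and 1074, and DESeq2 15 and 1, beside 1594 and 1252. Without Helios- replicate 3, 25 histone genes were higher and 1 repair gene lower, and 1 histone gene was lower without Helios- replicate 2, Helios+ replicate 4 or Helios+ replicate 5.

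Genes of G2 and mitosis had a higher median change than the replication genes. Limma called 13 of 26 higher and 0 lower, beside 14.1% and 10.7% of all genes. EdgeR and DESeq2 called 15 and 0, beside 1563 and 1074 of all genes in edgeR and 1594 and 1252 in DESeq2. The counts were 20 and 0 at an unadjusted limma p under 0.05, beside 1997 and 1807 of all 10718 genes. With the replicate block they were 18 and 0, beside 18.9% and 18.5%. The median log2 change was 0.89, against 0.27 for the 40 replication genes, and all 26 had a positive sign, beside 5033 of all 10718 genes. The difference between the lists was not tested, and the lists were not matched for level. At a mean of 10 to 50 normalized counts the median of the replication genes was 0.54, and at 200 to 1000 it was 0.08. Among them Top2a rose by 1.15 ± 0.11 and Kif11 by 1.56 ± 0.18 (limma adjusted p = 9.95e-07 and 8.66e-06), near the changes of Tyms, Chaf1a and Uhrf1 and above those of Mcm3, Mcm5 and Lig1.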

How the data were processed

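RNA was extracted on columns with DNase treatment and made into libraries with a stranded kit for total RNA at low input, per the labels' protocols. The submitters' processing notes name the build mm10, HISAT2 2.0.4, HTSeq and DESeq2, without their roles. Which annotation and strand setting the counting used is not given in the sources used here. Overlapping or antisense genes may therefore share reads. The authors deposited normalized counts, a signal that is never negative. All values (100%) were whole reads divided by 1 size factor per library, within a tolerance of 0.001, and reads were recovered from them (4872348 to 6948692 per library). The ribosomal RNA precursor Rn45s held 8.54% to 18.6% of them.

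The 41 genes were described by role. The genes and the other lists were chosen with earlier results of these data known, so a list is described by its counts beside the shares of all genes. The text names all 41 genes, of each other list genes among the 4 with the smallest p, and members of counts of 5 or fewer. A few genes of the other lists are not reported here. The main test was limma 3.58.1 (R 4.3.3, trend and robust) on log2(normalized count + 1) in a model of group alone, for the 10718 genes with a mean of at least 10, called at a Benjamini-Hochberg adjusted p under 0.05. This scale understates changes of low genes. Means are given with the SD and changes with the SE. Alternatives were a pseudocount of 0.5 or 5, no filter, a mean of at least 50, TMM, quantile normalization, edgeR 4.0.16 and DESeq2 1.42.0 on the recovered reads, the replicate block, and leaving out single libraries or replicate numbers. Intervals are at a level of 95% and cover the spread between libraries.

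Replicates of a group differed by more than sampling noise (3.67 to 55.8 in chi-square per degree of freedom). Libraries with the same replicate number deviated together from their group means, with correlations across genes of 0.481, 0.194, 0.388, 0.161 and 0.146 for numbers 1 to 5 and at most 0.117 between different numbers, so the numbers pair the samples in the block. Where a pair number is used, it comes from the labels. Exon lengths and overlaps are from GENCODE on GRCm38, promoter windows from RefSeq on GRCm38.p6. The tests were tried on simulated data.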

Additional observations from a re-analysis of the deposited data

Results flagged for a closer look

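Libraries that stood apart from the other 4 of their group were looked for in the 41 genes, or 82 groups of 5, by Dixon's test, for which chance flags about 1 in 20 groups. It flagged 5. Mcm6 was lowest in Helios+ library 5, at 738 normalized counts, where the next was 819. Cdc6 was highest in Helios- library 2, at 14.8, where the next was 8.76. Rpa1 was highest in Helios+ library 5, at 817, where the next was 710.2. Rrm1 was highest in Helios- library 3, at 304, where the next was 206. Chaf1a was highest in Helios+ library 4, at 115, where the next was 80.7. The calls of Mcm6 and Chaf1a held without these libraries, Rpa1 was not called with or without its library, and Cdc6 and Rrm1 passed the limma threshold without theirs.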

How the results depend on the processing

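The count of replication genes called higher stayed between 10 and 15 without single libraries or replicate numbers, and the count called lower stayed at 0 there. The calls of Mcm3, Mcm5, Mcm6, Lig1, Rrm2, Tyms, Tk1, Chaf1a, Uhrf1 and E2f2 held under each alternative that tested them. Rrm2 and Tk1 were not tested at a mean of at least 50. The median log2 change ranged from 0.22 to 0.33 in these runs and was 0.14 with quantile normalization, where 1 gene was called lower, as at a mean of at least 50. With the replicate block, limma called 2 of the 40 genes lower and 1979 of all genes, and beside the calls given in the report it changed no other call among the 40. Over all genes, 1183 to 1632 were called higher, 747 to 1293 lower and the median was -0.02 to -0.01 without single libraries or replicate numbers. Without replicate 4 the count lower was 747. The count of subunit pairs whose ratio differed ranged from 0 to 13 without single libraries, where fewer samples raise the smallest exact p. Quantile normalization turned Gins1 (-0.13) and Prim1 (-0.037). Leaving out libraries took the log2 changes of genes that were not called across 0, from -0.022 to 0.14 for Mcm2, -0.097 to 0.022 for Mcm4, -0.054 to 0.11 for Mcm7, -0.11 to 0.010 for Pola2, -0.032 to 0.089 for Pold1 and -0.14 to 0.041 for Rfc2. Of the other lists, 7 G2/M, 7 histone and 0 repair genes were higher at a mean of at least 50, where fewer genes are tested. Without both libraries of replicate 4, 8 histone, 5 G1/S control and 2 other replication genes were higher. Except where stated, the cause was not tested. Depth limits the genes with few reads (Cdc6, E2f1, Gins1, Gins2 and Mcm10).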
